A study of Mus musculus with 6 samples.

Results

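The dystrophin-glycoprotein complex was described here through 8 of its genes, namely Dmd, Utrn, Dag1, Sgca, Sgcb, Sgcd, Sspn and Dtna. They were chosen by name and not by a rule on their values, though earlier results of these data were known. The 8 are a subset of the 18194 genes that the array's annotation paired with a probe set of their own, and 25 of the 45101 probe sets on each array belonged to them. All 25 were examined, because a gene can be read by several probe sets that lie on different parts of its transcripts.

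The arrays measured total RNA of quadriceps muscle from C57/Bl6 mice aged 2 months. The knockout group held 3 arrays from mice with floxed Pofut1 alleles and a cre transgene under the skeletal alpha-actin promoter. The control group held 3 arrays from mice with the same cre transgene and wild-type Pofut1, so cre itself was shared by both groups. Pofut1 encodes the enzyme that attaches O-linked fucose to EGF-like repeats, as on Notch receptors, and the skeletal alpha-actin promoter is active in muscle fibres. The whole muscle was sampled, so transcripts of cells in which that promoter is silent contributed to every value. In such samples fewer cells of a type and less RNA per cell cannot be told apart.

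Dystrophin is a rod-shaped protein that ties actin filaments beneath the muscle membrane to dystroglycan, a receptor that spans the membrane and binds laminin outside the fibre through its sugar chains. A group of sarcoglycans and sarcospan holds this link in the membrane, while dystrobrevin and the syntrophins gather signalling proteins on its inner face. Utrophin is the close relative of dystrophin that takes its place at the neuromuscular junction and in regenerating fibres. Loss of dystrophin, sarcoglycans or dystroglycan glycosylation causes muscular dystrophies.

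The array labelled control replicate 3 differed from the others before any comparison. Its log2 values correlated with those of the other arrays at 0.940 to 0.945 over all genes, against 0.980 to 0.991 among the other 5. Its ratio of 3' over 5' signal for Gapdh, a measure of how intact the RNA was and how long its cDNA, was 10.5, that of knockout replicate 2 was 3.70, and the other 4 lay at 1.73 to 1.97. Pofut1 was also low in that array, by its brightest probe set only. Its brightest probe set had intensities of 220.1, 231 and 194 in knockout replicates 1 to 3, of 301 and 380 in control replicates 1 and 2 (379.8), and of 90.6 in the array labelled control replicate 3, the lowest of the 6. No source used here says if this probe set falls inside the floxed segment. The main results below are therefore also given without that array. Skeletal muscle identity was plain, since all 10 muscle fibre markers, from Acta1 and Ckm to Ttn and Des, lay above background in every array. Background here means an intensity of 95.7, the 95th percentile of 33 genes chosen as typical of other tissues. Of these, 2 lay above it in all 6 arrays, Cyp2e1 and Krt10.

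No probe set of the complex passed the test between knockout and control muscle. The fit was limma on log2 intensities, with Benjamini-Hochberg adjustment over all 45101 probe sets and a threshold of 0.05. It called 0 of the 25 member probe sets and 0% of all probe sets, and 0 of the 25 had an unadjusted p under 0.05, against 1.96% of all probe sets. By the brightest probe set of each gene the log2 difference, knockout minus control, was above 0 for 7 of the 8 genes, with a median of 0.18. Among the 9058 genes above background 54.1% were above 0, with a median of 0.027. Utrn had the highest value, 0.44, and Dtna the only negative one, -0.14. Adjusted p in limma ran from 0.988 to 0.9998 over the 25 probe sets. Only 3 of the 8 genes stayed above 0 without the array labelled control replicate 3, at a median of -0.03 and adjusted p of 0.861 to 0.999 over the probe sets in limma. These 3 are 37.5%, where 36.0% of the genes above background were above 0 in the same 5 arrays, with a median of -0.07.

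**Figure D1:**
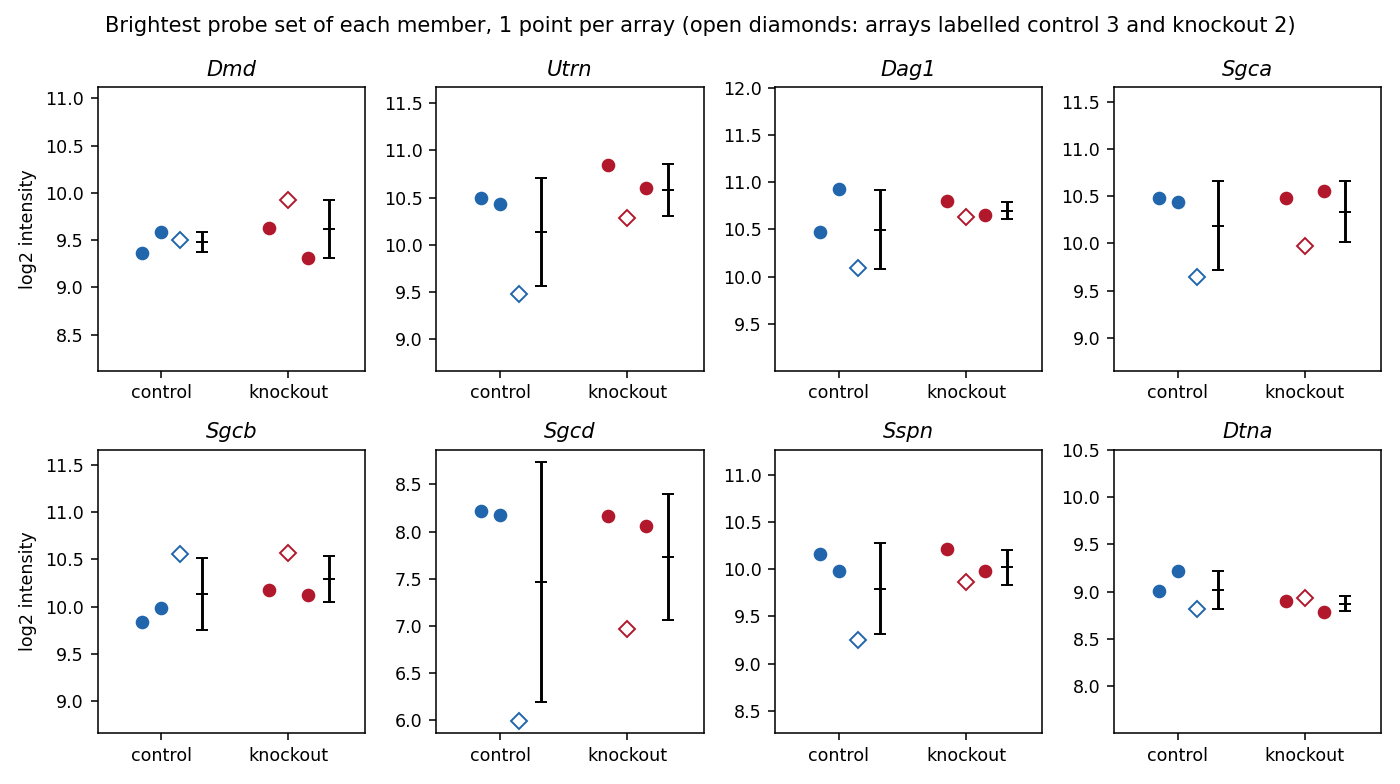
Log2 intensity of the brightest probe set of each of the 8 genes, with 1 point per array, control arrays in blue and knockout arrays in red, and black bars for the mean and SD of 3 arrays. Open diamonds mark the arrays labelled control replicate 3 and knockout replicate 2. In every panel control and knockout points overlap, and for Utrn, Dag1, Sgca, Sgcd and Sspn the lowest point is the array labelled control replicate 3.

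Dmd, which encodes dystrophin, was read by 4 probe sets, and the 2 bright ones disagreed. Probe set 1448665_at had intensities of 792, 972 and 634 in knockout replicates 1 to 3 and of 659.9, 766 and 722 in controls 1 to 3. The groups overlapped, with the highest and the lowest value both in knockout arrays. Its log2 difference was 0.14 ± 0.20 (SE), with a 95% interval of -0.34 to 0.61 and an adjusted p in limma of 0.988. Probe set 1417307_at had 587, 495 and 565 in the knockout and 673, 708 and 159 in the controls, so that the array labelled control replicate 3 was the low one and the other 2 controls lay above all knockout arrays. With all arrays its log2 difference was 0.37 ± 0.55 (interval -0.93 to 1.67). Without the array labelled control replicate 3 it was -0.33 ± 0.14, with an unadjusted limma p of 0.049 and an adjusted p of 0.861, whereas 1448665_at stayed at 0.15 ± 0.20. Of the 25 member probe sets 2 had an unadjusted p under 0.05 in that fit, against 4.9% of all probe sets. The remaining Dmd probe sets, 1443315_at and 1430320_at, had intensities of 38.0 to 60.9 and lay below background in every array.

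Because Dmd lies on the X chromosome, the sex of the mice was set beside it. Knockout replicate 2 and control replicate 2 had the female pattern, with Xist intensities of 1349 and 1414 and at most 67.6 elsewhere. Their 1448665_at values of 972 and 766 were the highest of the knockout group and of the control group. The other bright probe set, 1417307_at, did not share this in the knockout group. There knockout replicate 2 was the lowest of its group at 495, while control replicate 2 was the highest control at 708. The female array of the knockout group was also the one with the second high Gapdh ratio, and neither feature was tested as a source of its value.

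Utrn, which encodes utrophin, had the largest difference of the brightest probe sets. Probe set 1452222_at had intensities of 1834, 1249.7 and 1555 in knockout replicates 1 to 3 and of 1445, 1381 and 714 in controls 1 to 3. Knockout replicate 2 lay below 2 of the controls, so the groups overlapped, and the array labelled control replicate 3 was far below the rest. The log2 difference was 0.44 ± 0.30, or 1.36-fold, with an interval of -0.26 to 1.15 and an adjusted p in limma of 0.988. It was 0.11 ± 0.17 without the array labelled control replicate 3. Probe set 1426892_at had 213, 102 and 197 in the knockout and 145, 136 and 150.0 in the controls, with the highest and the lowest values both in knockout arrays and a log2 difference of 0.17 ± 0.31, or 0.21 ± 0.33 without the array labelled control replicate 3. That array was not low for this probe set. The last, 1427569_a_at, lay below background with 45.7 to 58.1.

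Dag1, the gene of both dystroglycan subunits, had 4 probe sets above background that fell into pairs. Probe set 1426778_at had intensities of 1789, 1588 and 1615 in the knockout and of 1418, 1951 and 1093 in the controls. The 3 knockout arrays lay between the controls, and the log2 difference was 0.20 ± 0.22 (interval -0.32 to 0.72; adjusted p in limma 0.988). Probe set 1426779_x_at followed it, with 0.23 ± 0.28, and both lost this difference without the array labelled control replicate 3, where they stood at -0.0016 and -0.00096. The other pair stood below 0, with -0.23 ± 0.34 for 1456131_x_at and -0.29 ± 0.29 for 1423872_a_at, and without that array these were -0.25 and -0.29. For this pair the low array was knockout replicate 2, with 116 and 88.1, against 167.7 to 262 and 123 to 185 in the controls. The direction of Dag1 thus depended on the probe set, and the mean of its 4 probe sets gave a log2 difference of -0.02. The letters x and a in these names mark probe sets that may read sequence shared with other transcripts or isoforms.

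Among the sarcoglycan genes the spread within groups was widest for Sgcd. Sgca, whose product is restricted to striated muscle, had intensities of 1433, 1004 and 1503 in the knockout and of 1428, 1386 and 801 in the controls (1422654_at). Its lowest values in each group came from knockout replicate 2 and from the array labelled control replicate 3. The log2 difference was 0.15 ± 0.28, and -0.12 ± 0.19 without the latter. Sgcd, for delta-sarcoglycan, had the same 2 low arrays in larger degree, with 288, 125 and 266 in the knockout and 297, 289.6 and 63.9 in the controls (1450805_at). Among the other 4 arrays its values spanned only 266 to 297. The log2 difference was 0.27 ± 0.64, with the widest interval of the 8 genes, -1.24 to 1.78, and it changed sign to -0.46 ± 0.36 without the array labelled control replicate 3. Without both low arrays it was -0.08.

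Sgcb, for beta-sarcoglycan, ran the other way in these 2 arrays, but only by its brightest probe set. Its brightest probe set, 1436678_at, had 1159, 1521 and 1119.6 in the knockout and 916, 1017 and 1512 in the controls, with the highest values in knockout replicate 2 and the array labelled control replicate 3. The log2 difference was 0.16 ± 0.23 (interval -0.39 to 0.71; adjusted p in limma 0.988). Without the array labelled control replicate 3 all 3 knockout arrays lay above both remaining controls, at 0.38 ± 0.17 with an unadjusted limma p of 0.060 and an adjusted p of 0.861. The other probe sets of Sgcb did not follow it, with 0.02 ± 0.20 for 1419668_at and 0.04 ± 0.17 for 1419667_at in that fit. Both had their lowest intensity, 307 and 276, in the array labelled control replicate 3. Sspn, the gene of the small membrane protein sarcospan, had intensities of 1189, 929 and 1009 in the knockout and of 1141, 1009.8 and 609 in the controls for 1417644_at. Its log2 difference of 0.22 ± 0.26 became -0.05 ± 0.15 without the array labelled control replicate 3. The dimmer 1417645_at had 323, 205 and 296 in the knockout and 241, 268 and 277 in the controls, with a log2 difference of 0.05 ± 0.23, or 0.09 ± 0.23 without that array.

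Dtna, which encodes alpha-dystrobrevin on the inner face of the complex, had the only negative difference by brightest probe set, though 4 of its 7 probe sets stood above 0. Its brightest probe set, 1425292_at, had intensities of 478, 488 and 441 in the knockout and of 516, 596 and 452 in the controls, with a log2 difference of -0.14 ± 0.18 (interval -0.58 to 0.29; adjusted p in limma 0.988). Probe set 1429768_at had 345, 324 and 317 in the knockout and 435, 456 and 355 in the controls, and every knockout array was below every control array. Its log2 difference was -0.33 ± 0.19, or 0.796-fold, and limma gave an adjusted p of 0.988. A two-sided exact permutation test of the 6 arrays gave 0.1, the smallest p that 3 against 3 allow. This was the 1 probe set of the 25 without overlap between groups, or 4%, where 7.66% of all probe sets had none. Without the array labelled control replicate 3 it was -0.44 ± 0.13, with an unadjusted limma p of 0.015 and an adjusted p of 0.861. Among the 5 Dtna probe sets above background the log2 difference ran from -0.33 to 0.23 with all arrays, and all 5 were below 0 without that array, at -0.44 to -0.08. Probe set 1419223_a_at moved most between the fits, from 0.23 to -0.08, since it read 186 in the array labelled control replicate 3 and 317 to 365 elsewhere. The 2 dim ones, 1427588_a_at and 1453625_at, had 45.0 to 95.2.

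Without the array labelled control replicate 3, knockout and control arrays did not overlap for 5 of the 20 member probe sets above background. Of these, 4 were lower in the knockout (Dmd 1417307_at, Sgcd and the first 2 of Dtna) and 1 was higher (Sgcb 1436678_at). This is 25%, where 27.1% of all probe sets above background had no overlap in the same 5 arrays, and 20% against 19.5% for those lower in the knockout.

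**Figure D2:**
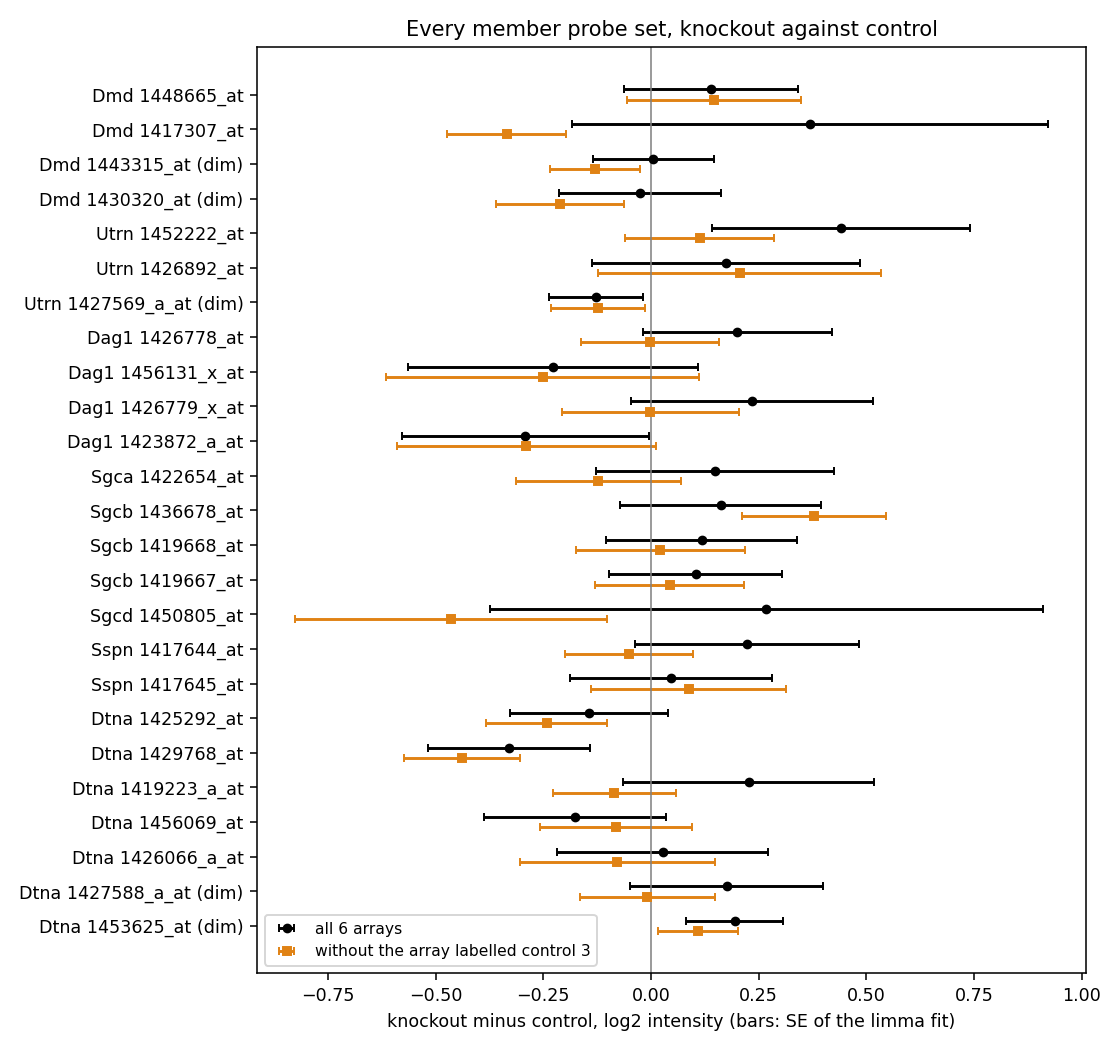
Log2 difference, knockout minus control, of each of the 25 member probe sets, in black for all 6 arrays and in orange without the array labelled control replicate 3, with bars for the SE of the limma fit; "dim" marks the 5 probe sets with a mean below background. Dmd 1417307_at goes from 0.37 to -0.33 and Sgcd from 0.27 to -0.46, while the 5 brighter Dtna probe sets all lie below 0 in orange.

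The 2 arrays of high Gapdh ratio were examined member by member. Each probe set was set against its mean in the other 4 arrays. In the array labelled control replicate 3, Sgcd stood at -2.16, Dmd 1417307_at at -1.98 and Utrn 1452222_at at -1.11 on the log2 scale, while Sgcb 1436678_at stood at 0.53 and Dmd 1448665_at at 0.026. The 20 member probe sets above background had a median of -0.29 there, and all 15845 probe sets above background had -0.27. The lowest of the 6 values was in this array for 10 of the 20, or 50%, against 49.6% of all those probe sets. Over these 20 probe sets the shift was thus close to that of the array as a whole in its median and its count. By the brightest probe set of each gene it was larger, with a median of -0.73 over the 8 genes. For 5 of the 8, or 62.5%, the lowest value was in this array, against 47.5% of the genes above background. Sgcd and Dmd 1417307_at lay below the 5th percentile of all probe sets, -1.68, in that array. In knockout replicate 2 the median of the 20 was -0.27, against -0.11 for all, and Sgcd was again the lowest of them at -1.19. Sgcb 1436678_at and Dmd 1448665_at were high there, at 0.54 and 0.45. The part of RNA integrity in these values was not tested.

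**Figure D3:**
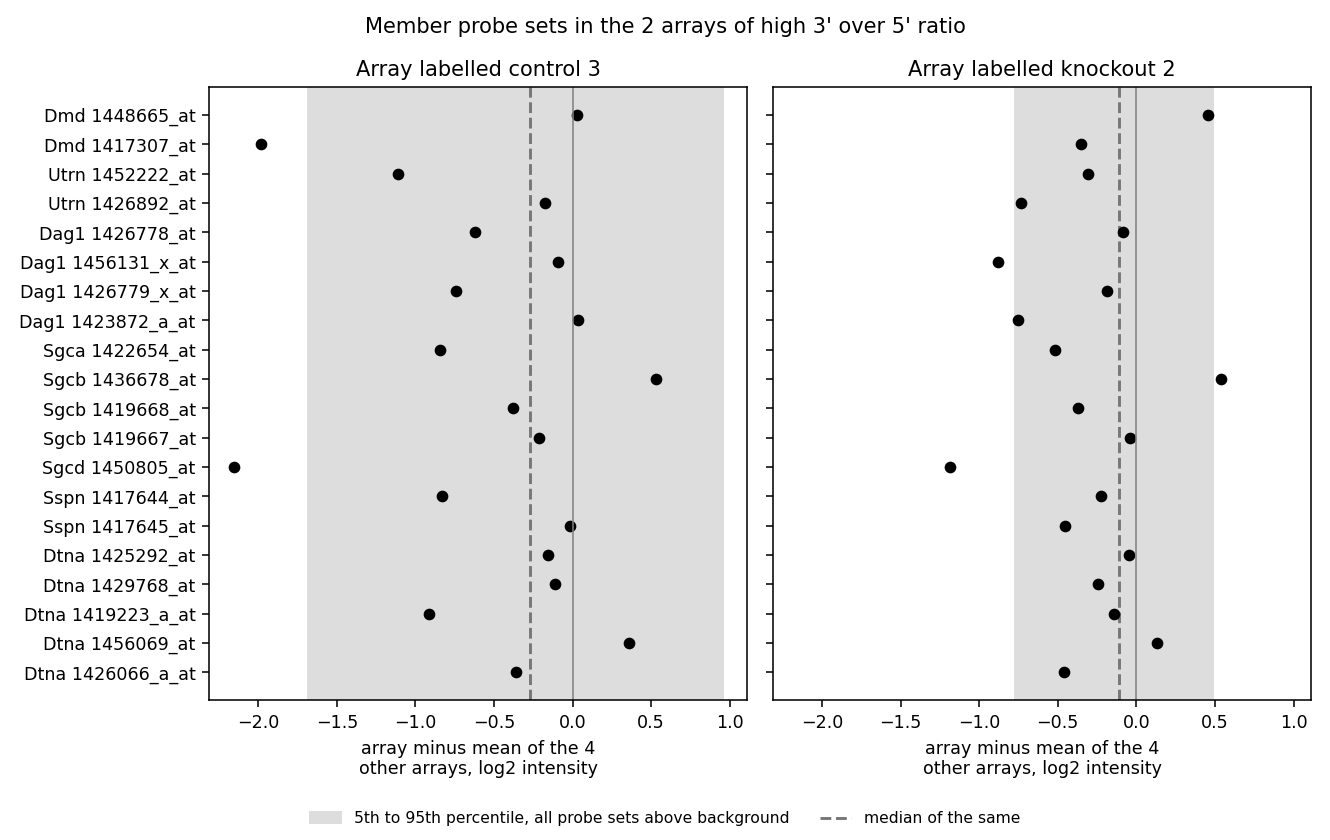
Log2 intensity of the 20 member probe sets above background in the arrays labelled control replicate 3 (left) and knockout replicate 2 (right), minus the mean of the other 4 arrays; grey bands span the 5th to 95th percentile of all 15845 probe sets above background and dashed lines their medians. Sgcd lies outside the band in both arrays, at -2.16 and -1.19, and Sgcb 1436678_at lies to the right of 0 in both.

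The 2 brightest probe sets of a gene often did not keep their ratio from array to array. For Dmd the log2 intensity of 1448665_at minus that of 1417307_at was 0.43, 0.97 and 0.17 in knockout replicates 1 to 3, -0.03 and 0.11 in control replicates 1 and 2, and 2.18 in the array labelled control replicate 3. The 2 highest of these values came from the 2 arrays of high Gapdh ratio. For Sgcb, 1436678_at minus 1419668_at was 2.31 and 2.30 in those same arrays and 1.34 to 1.52 in the other 4. For Utrn, Dag1 and Sspn the difference between their 2 brightest probe sets was lowest in the array labelled control replicate 3, at 2.25, 2.45 and 1.14, and highest or next to highest in knockout replicate 2, at 3.62, 3.78 and 2.18. Among these pairs of brightest probe sets only that of Dtna stayed within a narrow range, 0.25 to 0.59. This depended on the pair. In the array labelled control replicate 3, against the mean of the other 4, Dtna 1425292_at stood at -0.16 and 1419223_a_at at -0.91. Dag1 1426778_at and 1426779_x_at stood close to each other there, at -0.62 and -0.74. A ratio that moves within an array shows unequal change of its 2 probe sets and not which of them moved.

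Genes that work with the complex were followed through a list of 60, of which 59 were measured and 46 lay above background. Limma called 0 of the 59, as it called 0% of all genes, and 2 had an unadjusted p under 0.05, or 3.39%, against 2.24% of all genes. By brightest probe set 22 had values above 0, or 37.3%, and 37 below, with a median log2 difference of -0.04. Of all genes 46.3% were above 0, and of those above background 54.1%. The groups did not overlap for 6 of them, or 10.2%, against 9.01% of all genes. Without the array labelled control replicate 3 the count below 0 was 40, or 67.8%, and the median -0.06. In the same arrays 48.0% of all genes and 36.0% of those above background were above 0, the latter with a median of -0.07.

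Sgce, for epsilon-sarcoglycan, had a log2 difference of -0.07 ± 0.22, and -0.19 ± 0.18 without that array. Of 11 syntrophins, beta-dystrobrevin and signalling partners 3 had values above 0 and 8 below (median -0.06), and 2 were above 0 without it (median -0.10). The adaptor Grb2, which binds dystroglycan, had -0.50 ± 0.26, with intensities of 638, 613 and 1020.2 in the knockout and 1205, 1163 and 808 in the controls. Nos1, the neuronal nitric oxide synthase held at the membrane by syntrophin, had -0.58 ± 0.31, and its highest value, 818, was in the array labelled control replicate 3. Without that array they stood at -0.69 and -0.32. Of 15 enzymes that build the laminin-binding sugars of dystroglycan 6 had values above 0 and 9 below (median -0.11), the same counts as without that array (median -0.03). Pomgnt2, which adds N-acetylglucosamine to the O-mannose of dystroglycan, had -0.37 ± 0.21, and Pomk, the kinase that phosphorylates that mannose, had -0.57 ± 0.37. Both had their highest intensity, 416 and 1073, in the array labelled control replicate 3, and without it they stood at -0.21 and -0.13. For both, every knockout array was below every control array.

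Of 11 extracellular ligands of dystroglycan 6 had values above 0 and 5 below (median 0.00085), but only 3 were above 0 without the array labelled control replicate 3 (median -0.08). Agrn, the gene of an organiser of the neuromuscular junction, had 0.33 ± 0.22, and the laminin chain gene Lama4 had -0.29 ± 0.26. Without that array they stood at 0.27 and -0.20. Of 21 cytoskeletal and costamere partners 7 had values above 0 and 14 below (median -0.04), and 8 were above 0 without it (median -0.04). Actb, cytoplasmic beta-actin, had 0.38 ± 0.14, with 6088, 6536 and 6265 in the knockout and 5149.6, 5582 and 3898 in the controls, and no overlap. Limma gave it an unadjusted p of 0.028 and an adjusted p of 0.988. Its difference was 0.23 ± 0.08 once the array labelled control replicate 3 was left out. Its 3' over 5' ratio was also high in that array, at 5.85, and in knockout replicate 2, at 4.34, against 1.67 to 1.83 elsewhere. Plec, which encodes the cytolinker plectin that binds dystrophin, had -0.19 ± 0.14, and -0.29 ± 0.12 without that array. All of these genes had an adjusted p in limma of 0.988, except Sgce at 0.992.

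**Figure D4:**
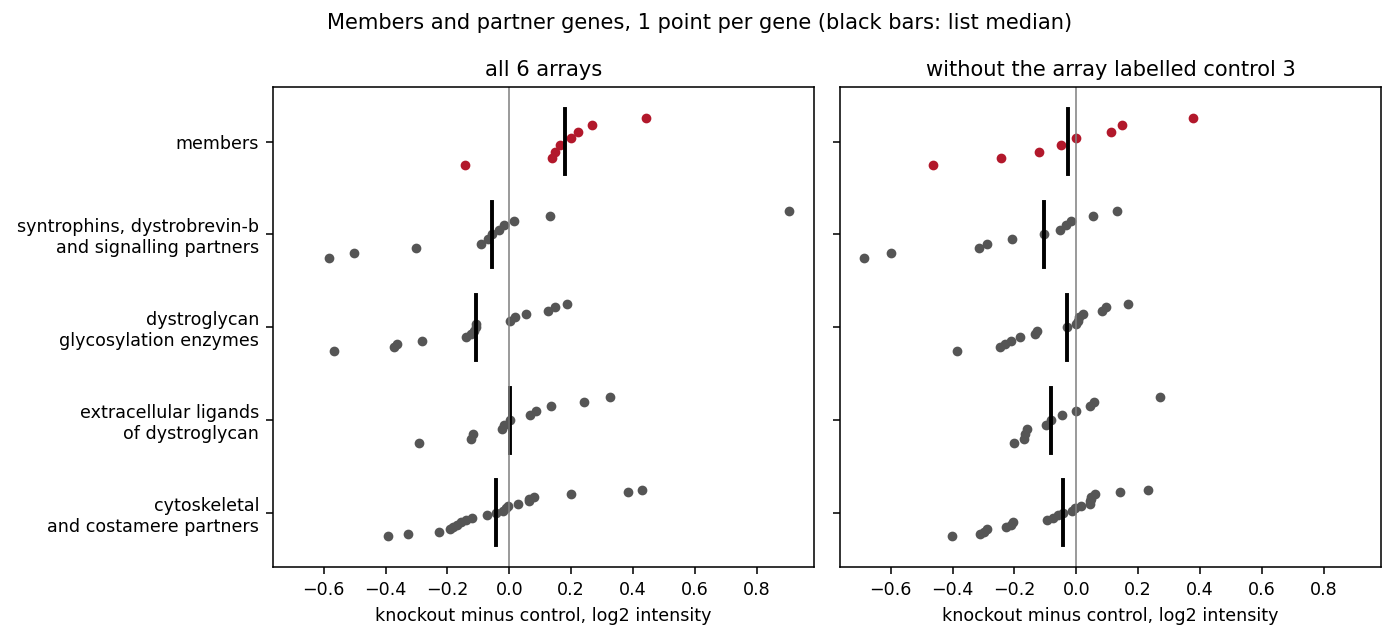
Log2 difference, knockout minus control, of the 8 members (red) and of 4 lists of partner genes (grey), with 1 point per gene by its brightest probe set and black bars for list medians, for all 6 arrays (left) and without the array labelled control replicate 3 (right). The median of the members moves from 0.18 to -0.03 between the panels, and the partner lists stay between -0.11 and 0.00085.

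Markers of other cells in the muscle were read beside the members, several of which are also transcribed outside fibres. Endothelial markers had higher values in the knockout for 4 of 6 genes. Their mean log2 values, 7.59 to 7.78 in the knockout arrays and 7.29 to 7.52 in the control arrays, did not overlap. Muscle fibre markers did not overlap either, at 12.89 to 12.95 against 12.77 to 12.87, with 8 of 10 genes higher. That count of 8 was the same without the array labelled control replicate 3. The lack of overlap of these list means was not tested, and no share over other lists was computed. Taken singly, 9.01% of all genes did not overlap between the groups. Smooth muscle and pericyte markers had 4 of 6 higher (8.46 to 8.58 against 8.19 to 8.49), with Cnn1 below background in every array. Fibroblast markers were split 3 to 3 (10.4 to 10.8 against 10.4 to 10.7). Of 4 measured adipocyte markers 4 were higher (9.14 to 10.5 against 8.68 to 9.90), and 5 of 6 macrophage markers were lower (8.66 to 9.47 against 8.57 to 9.81). Schwann cell markers, with S100b below background in every array, were split 2 to 2 (7.93 to 8.27 against 7.44 to 8.26), as were those of satellite cells and regenerating fibres 3 to 3 (7.13 to 7.73 against 6.91 to 7.51). Several of these counts moved when the array labelled control replicate 3 was left out. Endothelial and smooth muscle markers were then higher for 6 of 6 genes each, fibroblast markers for 1 of 6, Schwann cell markers for 1 of 4, adipocyte markers for 3 of 4, macrophage markers for 0 of 6 and satellite cell markers for 3 of 6. The adipocyte median went from 0.47 to 0.10 and the smooth muscle median from 0.014 to 0.14. The part of these cells in the values of Utrn, Dag1 and the other members was not tested.

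The genes whose log2 values followed Dmd 1448665_at most closely over the 6 arrays were Kat6a, a histone acetyltransferase, Glrx2, a mitochondrial glutaredoxin, and Homer2, a scaffold protein gene, with Pearson correlations of 0.983, 0.982 and 0.977 among 9057 genes above background. Over the 5 arrays without the one labelled control replicate 3 they were 0.983, 0.982 and 0.981. Of the other members Sgcb had the highest correlation with Dmd, 0.59, and Sgca the lowest, -0.40, and over those 5 arrays they had 0.81 and -0.89. With only 6 arrays, these correlations describe how values varied from array to array and carry no test. The part of RNA quality in them was not tested.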

How the data were processed

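Each of 6 quadriceps RNA samples was hybridised to its own Affymetrix mouse array. The authors deposited a linear intensity for every probe set, 37.2 to 16069, made with GCOS and RMA, per the submitters' processing notes. Versions, and any rescaling after RMA, are not given in those notes as used here. RMA can compress differences of dim probe sets. The labels do not say that samples came from separate mice, and the spread behind each p-value may be partly technical. Each group held arrays of both sex patterns, and so more than 1 mouse.

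Probe sets were named through the platform annotation (34958 with 1 gene symbol, 932 with several, 9211 unlisted here). Log2 intensities were fitted by group alone in limma (version 3.58.1, R 4.3.3; lmFit, then eBayes with a mean-variance trend) over all 45101 probe sets, 64 array controls included. Tests were two-sided. A gene was represented by its brightest probe set, and its other probe sets were given beside it. Levels were not compared between probe sets of different genes. The number of arrays limits the precision. The fit was tested on simulated data.

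The members and the partner and marker lists were chosen with earlier results of these data known. Beside the 8 members, the genes named were Pofut1, of each partner list the 2 genes with the smallest p above background, the 3 genes most correlated with Dmd, and marker genes as examples. Xist was added after its values were seen. Alternatives covered normalization, weights, variance models, filters, use of probe sets, the replicate number as a block, and leaving out arrays. Those without control probe sets and with the sex pattern as a covariate were added after seeing the data.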

Additional observations from a re-analysis of the deposited data

How the results depend on the processing

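The count of called probe sets was 0 with all arrays (883 had an unadjusted limma p under 0.05) and 0 under 18 of the 19 alternatives, ordinary statistics and each removal of 1 array among them. It was 4 with array weights, which gave the array labelled control replicate 3 a weight of 0.107. Those were probe sets of Ucp3, Phlda3 and Pnpt1 and 1 without a listed gene, named after their values were seen. None of the members and partner genes was called under any of the 19 alternatives, at a lowest adjusted p of 0.351 in limma. The count of members above 0 was 4 with array weights, and 3 to 7 when 1 array was left out, the lowest without the array labelled control replicate 3.

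Log2 differences changed sign as follows, and the cause was not tested. With array weights Sgca stood at -0.0070, Sgcd at -0.19 and Sspn at -0.0060. With the mean of probe sets Dag1 stood at -0.021. Without both arrays of high Gapdh ratio Dmd stood at -0.0056 and Sgcd at -0.082. Leaving out 1 array gave -0.013 to 0.30 for Dmd, -0.0016 to 0.42 for Dag1, -0.12 to 0.33 for Sgca, -0.46 to 0.65 for Sgcd and -0.050 to 0.40 for Sspn. The negative value came without knockout replicate 2 for Dmd and without the array labelled control replicate 3 for the rest. Utrn, Sgcb and Dtna kept their sign in the 12 alternatives that gave another estimate, at 0.11 to 0.62, 0.02 to 0.38 and -0.27 to -0.0038. The other 7 change the error or the set of probe sets tested and return the same difference.

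Arrays with the same replicate number had the same sex pattern, and their deviations from the group means had correlations of 0.19, -0.15 and -0.11. With 3 arrays per group these correlations cannot decide if the samples were paired. With the replicate number as a block 0 probe sets were called and the log2 difference of Utrn was 0.44. Such a block, like the sex pattern with 1 female array per group, is balanced over the groups and cannot move the difference of means. With 3 arrays per group and signals near background, differences of the 5 dim member probe sets are uncertain.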
